A study of Mus musculus with 8 samples.

Results

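The 10 genes described here belong to the NF-kB pathway or are linked to it: the subunit genes Nfkb1, Nfkb2, Rela, Relb and Rel, the feedback inhibitor genes Nfkbia, Tnfaip3 and Socs3, and the chemokine genes Ccl3 and Ccl4. They were chosen by symbol, with earlier results of these data known, and all 10 were found among the 37991 gene identifiers of the deposited count table. RNA was measured in Flt3- LSK cells sorted from C57BL/6J bone marrow, the gate in which haematopoietic stem cells are found, with 24000 sorted cells per sample. The WT group carried floxed Runx1 (Runx1f/f), and the group labelled Mut was described as Runx1 deficient. The labels name neither the Cre or its driver, nor the deleted part of Runx1, nor the age of the mice, nor whether animals were pooled. Each group had 2 samples, and each sample, going by its name, was measured in a library of polyA-selected RNA (mRNA library) and in a library of total RNA, which gives 8 libraries in 4 groups of 2. Both kinds of library received synthetic ERCC spike-in RNA.

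NF-kB is a family of dimeric transcription factors made from the products of 5 genes. In resting cells IkB proteins hold the dimers in the cytoplasm, and receptors such as those for TNF and interleukin-1 activate IkB kinases that mark IkB for destruction, so that the dimers enter the nucleus. Among the genes that NF-kB switches on are its own brakes, Nfkbia, which encodes IkB-alpha, and Tnfaip3, which encodes the ubiquitin-editing enzyme A20, as well as chemokines. Socs3 encodes an inhibitor of JAK kinases below cytokine receptors and is best known as a target of STAT factors. In stem and progenitor cells of the marrow the pathway takes part in the response to inflammatory signals.

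Gene counts were 35096252 to 37924699 per mRNA library and 967694 to 1218437 per total RNA library, where rRNA took 93.3 to 94.5% of all counts. Levels are given as CPM, the gene count relative to all gene counts of its library after TMM scaling within a kind. Runx1 itself went against the label, at 200 and 208 CPM (WT) against 749 and 941 CPM (Mut-labelled) in mRNA libraries. A count over the whole gene does not check a deletion within it, so the groups are called Mut-labelled and WT, and every direction below rests on the labels. The markers that define the sort were present in all mRNA libraries, with Kit at 884 to 1100 CPM and Ly6a, which encodes Sca-1, at 23.7 to 38.6 CPM. Flt3, the marker sorted against, stood at 57.3 to 155 CPM.

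The promoters of the members whose RNA differed most, and that of Nfkbia as a member whose groups overlapped, are shown first, because NF-kB, RUNX and STAT factors bind short motifs that can be looked for in them. Each runs 5′ to 3′ from 250 bases before the annotated start site to 50 after it and is taken from RefSeq on GRCm38.p6, not from the mm9 build of the counts. Capitals mark matches, on either strand, to the kB consensus, the RUNX core TGTGGT or the STAT motif, which is TTC and GAA with 3 bases of any kind between them. The windows are chr11:83649329-83649628 for Ccl3, chr11:117969317-117969616 for Socs3, chr10:19015361-19015660 for the first start site of Tnfaip3 and chr12:55492598-55492897 for Nfkbia, all on the minus strand.
Ccl3: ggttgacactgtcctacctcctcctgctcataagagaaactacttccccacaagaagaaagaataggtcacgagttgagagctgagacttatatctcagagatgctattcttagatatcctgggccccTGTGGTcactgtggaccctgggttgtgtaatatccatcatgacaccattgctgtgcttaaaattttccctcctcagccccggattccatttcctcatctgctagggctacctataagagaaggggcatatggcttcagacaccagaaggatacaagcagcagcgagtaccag
Socs3: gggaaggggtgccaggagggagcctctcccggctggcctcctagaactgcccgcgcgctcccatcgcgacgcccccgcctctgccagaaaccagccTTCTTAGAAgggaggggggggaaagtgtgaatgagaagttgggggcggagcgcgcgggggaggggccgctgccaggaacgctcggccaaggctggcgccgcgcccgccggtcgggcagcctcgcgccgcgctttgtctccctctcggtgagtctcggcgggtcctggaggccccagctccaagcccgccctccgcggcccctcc
Tnfaip3: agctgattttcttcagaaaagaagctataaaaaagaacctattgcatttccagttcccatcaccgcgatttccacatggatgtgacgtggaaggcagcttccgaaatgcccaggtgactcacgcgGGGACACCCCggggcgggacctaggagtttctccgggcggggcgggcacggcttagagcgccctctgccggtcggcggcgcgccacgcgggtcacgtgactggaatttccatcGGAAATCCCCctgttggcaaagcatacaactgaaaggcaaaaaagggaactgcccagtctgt
Nfkbia: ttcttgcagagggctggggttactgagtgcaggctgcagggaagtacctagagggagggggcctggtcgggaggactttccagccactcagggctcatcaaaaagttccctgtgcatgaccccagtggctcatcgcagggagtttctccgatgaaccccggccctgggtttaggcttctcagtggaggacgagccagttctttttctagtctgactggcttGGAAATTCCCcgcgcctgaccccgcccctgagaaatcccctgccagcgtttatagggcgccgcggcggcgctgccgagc

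The capitals in Ccl3 are a RUNX core, 122 to 117 bases before the start, and this window held no kB consensus and no STAT motif. In Socs3 they are a STAT motif, 154 to 146 bases before the start. Tnfaip3 held 2 kB matches, 125 to 116 and 12 to 3 bases before the start, and Nfkbia held 1, 29 to 20 bases before it. The table of windows matched 7 of the 10 members with 10 windows, and Nfkb1, Relb and Ccl4 had no entry. Of those 10 windows 6 held a kB consensus, from Nfkb2, Rel, Nfkbia and Tnfaip3, against 8.46% of the 32851 windows of the table. Windows 2 and 3 of Nfkb2 overlap and share 1 of these matches, so the 6 windows are not 6 separate stretches. A RUNX core was in 2 windows (Rel and Ccl3), against 16.76% of all, and a STAT motif in 2 (Nfkb2 and Socs3), against 8.3%. A match is a stretch of letters and not a measured binding site.

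**Figure D1:**
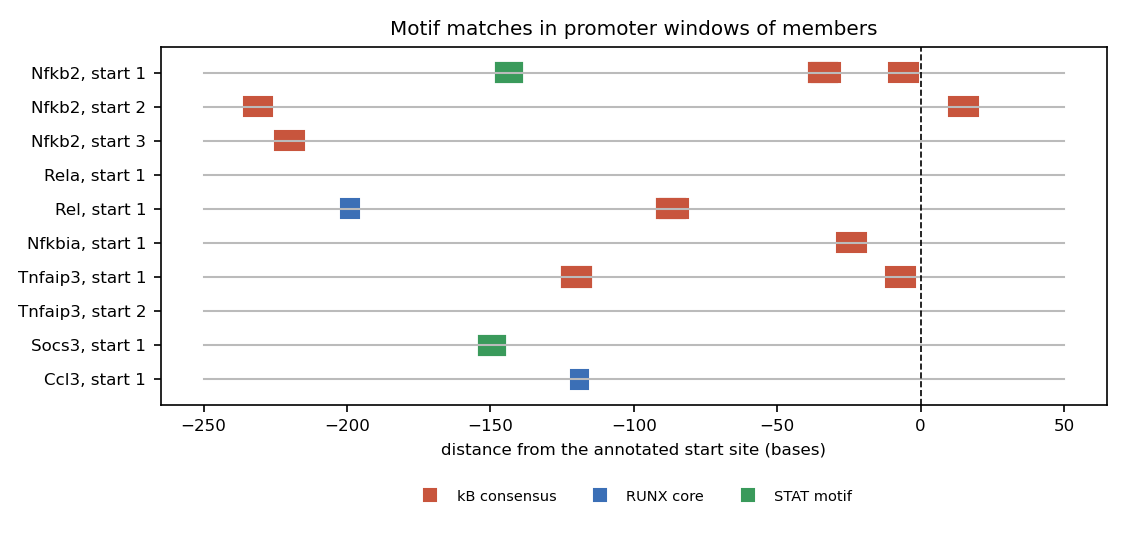
Positions of kB consensus (red), RUNX core (blue) and STAT motif (green) matches in the 10 promoter windows of 7 members, plotted as distance in bases from the annotated start site (dashed line). The kB matches lie in windows of Nfkb2, Rel, Nfkbia and Tnfaip3, the RUNX cores in those of Rel and Ccl3, and the STAT motifs in those of Nfkb2 and Socs3.

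The members that differed most were Ccl3, with a lower level of RNA in Mut-labelled libraries, and Socs3 and Tnfaip3, with a higher level. The 5 subunit genes had log2 fold changes between -0.14 and 0.66, and none was called within a kind of library by edgeR or DESeq2 without a replicate block. In the mRNA libraries 1 of 10 members was called at an adjusted p under 0.05 by edgeR's quasi-likelihood test, Ccl3, which was lower, against 3.64% of the 17128 genes tested (1.89% called lower). In the total RNA libraries 8 members had enough counts to test and 2 were called, Socs3 and Tnfaip3, both higher, against 4.22% of 10546 genes (2.54% called higher). Over all genes 300 were called higher and 324 lower in mRNA libraries, and 268 and 177 in total RNA libraries, and with ERCC scaling these were 16 and 154, and 13 and 360. Nothing in the labels says that samples came from separate animals, so a p-value here measures only how far these samples spread, which may be technical spread. In a fit over all 8 libraries, the difference between groups depended on the kind of library for 0 of 10 members (0%) in edgeR and 0 in DESeq2, and 0 had an unadjusted edgeR p below 0.05. Over all genes that test called 0 of 17416 (687 at an unadjusted p below 0.05, 11 by DESeq2), and 111 with the sample of origin as a block, with 0 members among them.

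**Figure D2:**
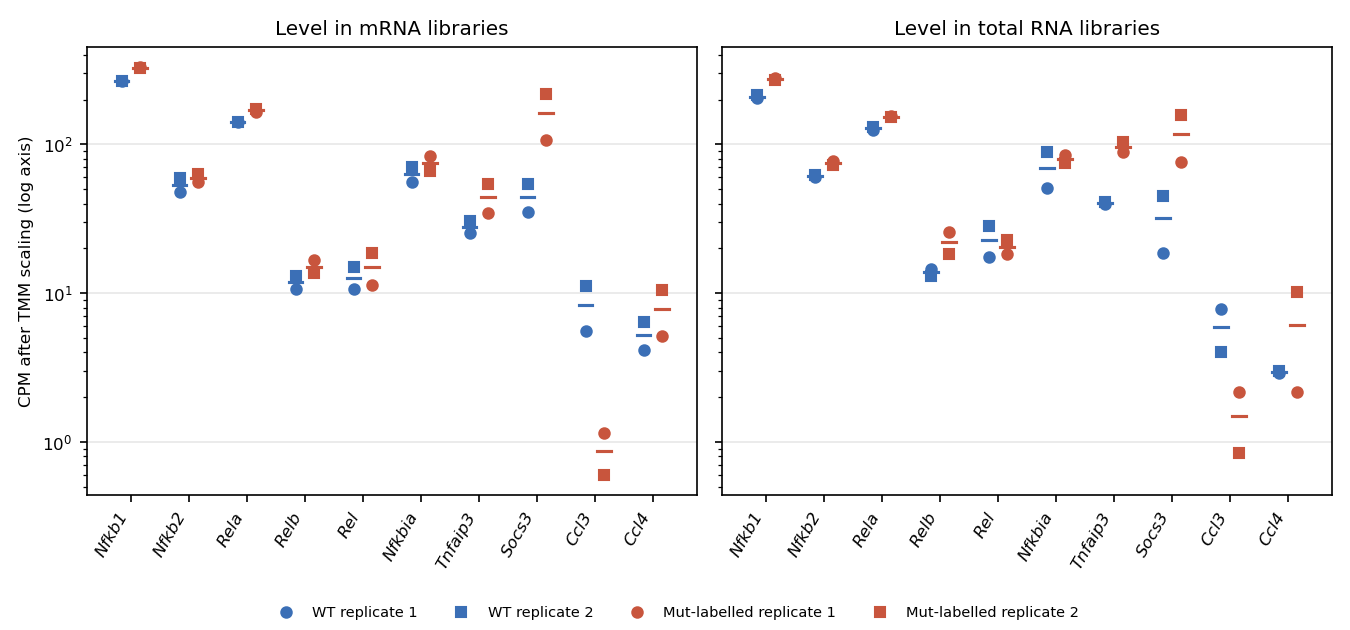
Level of each member in every library, in CPM after TMM scaling on a log axis, with mRNA libraries on the left and total RNA libraries on the right. Blue marks WT and red Mut-labelled libraries, circles replicate 1, squares replicate 2, and short lines group means. The 2 Mut-labelled libraries lie below both WT libraries for Ccl3 and above them for Socs3 and Tnfaip3 in both kinds.

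Of the subunits, Nfkb1 encodes p105, the precursor of p50, and was the most abundant member in CPM. It stood at 267 and 268 CPM (WT) against 329 and 327 CPM (Mut-labelled) in mRNA libraries, and at 204 and 214 against 277 and 271 CPM in total RNA libraries. The groups did not overlap and the spread within each was small, but the difference missed the threshold in both kinds, with log2 fold changes of 0.29 (SE 0.13, 95% interval -0.02 to 0.61, edgeR adjusted p = 0.356) and 0.39 (SE 0.16, 95% interval 0.06 to 0.72, edgeR adjusted p = 0.218). Rela encodes p65, the transactivating partner of p50 in the classical dimer. It had 142 CPM in both WT libraries against 165 and 174 CPM (Mut-labelled) in mRNA libraries, and 124 and 131 against 155 and 152 CPM in total RNA libraries. Its groups too did not overlap, with log2 fold changes of 0.25 (edgeR adjusted p = 0.411) and 0.27 (edgeR adjusted p = 0.532).

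Nfkb2 and Relb encode p100, the precursor of p52, and RelB, the partners of the non-classical dimer. Nfkb2 stood at 47.6 and 59.4 CPM (WT) against 55.7 and 62.9 CPM (Mut-labelled) in mRNA libraries, which overlapped. In total RNA it had 60.4 and 62.2 against 77.6 and 72.1 CPM, with no overlap. Exons of Nfkb2 overlap exons of Psd and of the non-coding gene AC114539.1 on the opposite strand, so its counts are uncertain without knowledge of strand use. Relb was low in all libraries, at 10.6 and 13.0 against 16.7 and 13.6 CPM in mRNA and 14.6 and 13.0 against 25.9 and 18.4 CPM in total RNA libraries. The Mut-labelled values were the higher ones in both kinds, but those total RNA values rest on 13 to 24 counts per library. Log2 fold changes were 0.15 and 0.36 in mRNA and 0.28 and 0.66 in total RNA libraries for Nfkb2 and Relb, and the 4 edgeR adjusted p were 0.79, 0.61, 0.632 and 0.513.

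Rel encodes c-Rel, the subunit best known from lymphocytes. It had 10.6 and 14.9 CPM (WT) against 11.3 and 18.5 CPM (Mut-labelled) in mRNA libraries, and 17.5 and 28.1 against 18.3 and 22.6 CPM in total RNA libraries. The groups overlapped in both kinds, and the 95% interval of the log2 fold change, -0.58 to 1.04 in mRNA libraries, leaves room for a difference of up to 2.05-fold (edgeR adjusted p = 0.853). For Nfkb1, Rela and Nfkb2 the upper ends in mRNA libraries were 1.52-, 1.46- and 1.46-fold. In the mRNA libraries the 5 subunit genes were all positive under TMM scaling, and all 5 turned negative (-0.08 to -0.24) when libraries were scaled by their ERCC counts. ERCC scaling moved the median log2 fold change of all genes from -0.01 to -0.38 in mRNA and from 0.00 to -1.1 in total RNA libraries, and in mRNA libraries the 5 subunits stayed above that median. ERCC counts per 1000 gene counts differed within groups, at 6.51 and 3.13 in WT and 8.91 and 3.81 in Mut-labelled mRNA libraries. In total RNA libraries they were 4.14 and 5.64 in WT against 7.72 and 13.6 in Mut-labelled libraries, where the groups did not overlap.

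Of the inhibitors, Nfkbia had 55.5 and 69.9 CPM (WT) against 84.0 and 66.0 CPM (Mut-labelled) in mRNA libraries, and 50.6 and 88.3 against 85.1 and 75.4 CPM in total RNA libraries. The groups overlapped in both kinds, with log2 fold changes of 0.26 (SE 0.18, edgeR adjusted p = 0.631) and 0.21 (SE 0.25, edgeR adjusted p = 0.793). The widest spread of Nfkbia within a group was that of the WT total RNA libraries, 69.5 ± 26.7 CPM (SD, n = 2).

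Tnfaip3 rose in the total RNA libraries, from 39.9 and 41.2 CPM in WT to 88.4 and 103 CPM in Mut-labelled libraries. These are 41 and 41 counts against 82 and 123, a 2.36-fold difference with a log2 fold change of 1.24 (SE 0.23, 95% interval 0.76 to 1.72, edgeR adjusted p = 0.00218). The call was lost with DESeq2 (adjusted p = 0.088) and under ERCC scaling, where the log2 fold change was 0.12 (edgeR adjusted p = 0.847). In the mRNA libraries Tnfaip3 stood at 25.2 and 30.4 CPM (WT) against 34.3 and 54.1 CPM (Mut-labelled). The Mut-labelled libraries were again the higher ones, but by 1.59-fold and with a wider spread (log2 fold change 0.67, SE 0.26, edgeR adjusted p = 0.284). The value of the total RNA libraries exceeded that of the mRNA libraries by 0.62 on the log2 scale (95% interval -0.14 to 1.37, edgeR adjusted p = 1), so the kinds were not shown to differ.

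Socs3 had the largest positive difference of the members. In the total RNA libraries it rose from 18.5 and 45.2 CPM to 76.5 and 158 CPM, a 3.69-fold difference with a log2 fold change of 1.91 (SE 0.34, 95% interval 1.19 to 2.62, edgeR adjusted p = 0.0017). In the mRNA libraries it stood at 35.2 and 54.1 CPM (WT) against 107 and 218 CPM (Mut-labelled). The size was the same, 3.64-fold with a log2 fold change of 1.86 (SE 0.38, 95% interval 0.93 to 2.80), but the test missed the threshold (edgeR adjusted p = 0.0666). Within each group the library named replicate 2 had the higher value, in both kinds, by 1.54- and 2.04-fold in WT and Mut-labelled mRNA libraries and by 2.44- and 2.07-fold in total RNA libraries. In the mRNA libraries the call was made by DESeq2 (adjusted p = 4.43e-08), without a filter on low counts (edgeR adjusted p = 0.0425) and when Mut-labelled replicate 1 (0.00308), WT replicate 1 (0.0455) or WT replicate 2 (0.0015) was dropped. Leaving out a library moved the total RNA change between 1.28 (Mut-labelled replicate 2 left out) and 2.69 (WT replicate 2 left out), and the mRNA change between 1.27 (without Mut-labelled replicate 2) and 2.29 (without Mut-labelled replicate 1). In total RNA the call was lost in the fit over all 8 libraries (edgeR adjusted p = 0.112) and under ERCC scaling (log2 fold change 0.74, edgeR adjusted p = 0.27). For mRNA libraries the fit over all 8 libraries made the call (edgeR adjusted p = 0.0189), and ERCC scaling did not (log2 fold change 1.57, edgeR adjusted p = 0.999). Only 6.76% of genes tested in mRNA and 1.63% of those in total RNA libraries had a larger difference in either direction.

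Markers of other cell types also differed between the groups. In bulk RNA, fewer cells of a type and less RNA per cell cannot be told apart. The summed level of 11 mature neutrophil markers was 41.7 and 49.8 CPM (WT) against 532 and 168 CPM (Mut-labelled replicates 1 and 2) in mRNA libraries, with Stfa2l1 at 0 in WT. Of their 10 tested genes 2 were called higher, Retnlg and Cxcr2. For total RNA, where Socs3 was called, the sum was 31.2 and 34.1 against 276 and 121 CPM, and 6 of 6 tested markers were called higher. Among the Mut-labelled libraries the neutrophil sum was higher in replicate 1 and Socs3 in replicate 2. Erythroid markers summed to 550 and 393 against 120 and 63.5 CPM in mRNA libraries (4 called lower), and megakaryocyte and platelet markers to 599 and 534 against 1850 and 1700 CPM (3 called higher, 1 lower). Of the latter sums Itga2b alone held 337 and 318 against 1350 and 1340 CPM, while Vwf stood at 122 and 123 against 58.7 and 40.2 CPM. B and plasma cell markers, at 1170 and 9680 against 501 and 2180 CPM, were higher in replicate 2 of each group, as Socs3 was. Neutrophils express Socs3, and also Csf3r and Cxcr2 of the lists described further on, and the part of any of these cells in their differences was not tested.

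**Figure D3:**
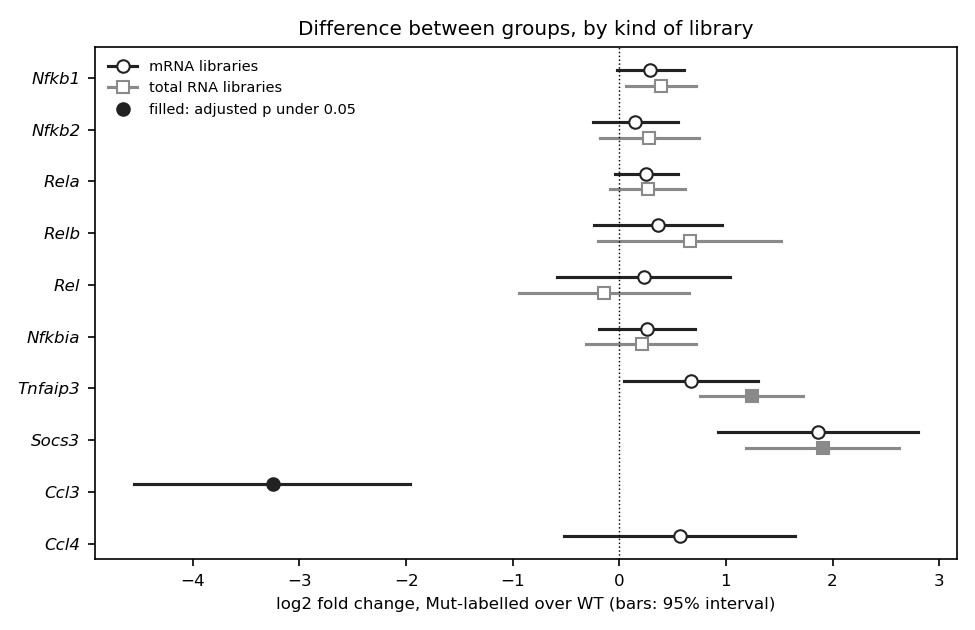
Log2 fold change of each member, Mut-labelled over WT, with its 95% interval (horizontal bars), in mRNA (black circles) and total RNA (grey squares) libraries, and filled symbols where edgeR's adjusted p was under 0.05. Ccl3 and Ccl4 had too few counts to be tested in total RNA libraries. The 5 subunits and Nfkbia sit between -0.14 and 0.66, Socs3 near 1.9 in both kinds, and Ccl3 at -3.25.

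Ccl3 and Ccl4 encode MIP-1alpha and MIP-1beta, neighbouring chemokine genes whose products attract monocytes and lymphocytes. MIP-1alpha is also known as an inhibitor of the proliferation of haematopoietic progenitors. Ccl3 fell in the mRNA libraries, from 5.56 and 11.1 CPM in WT to 1.14 and 0.602 CPM in Mut-labelled libraries. These are 211 and 425 counts against 40 and 22, a 9.56-fold lower mean with a log2 fold change of -3.25 (SE 0.53, 95% interval -4.55 to -1.96, edgeR adjusted p = 0.0357). Without WT replicate 2 the change was -2.65. Without Mut-labelled replicate 2 it was -2.86 and missed the threshold (edgeR adjusted p = 0.0568), and under ERCC scaling it was -3.97 (edgeR adjusted p = 0.0717). The total RNA libraries held 8 and 4 counts in WT and 2 and 1 in Mut-labelled libraries. Per gene count that is a 4.29-fold lower level, with an exact 95% interval of 1.16 to 23.7 that covers counting error alone.

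Ccl4 was not called and had too few counts for a test in total RNA libraries. It had 4.14 and 6.41 CPM (WT) against 5.12 and 10.5 CPM (Mut-labelled) in mRNA libraries, which overlap (log2 fold change 0.57, SE 0.44, 95% interval -0.52 to 1.65, edgeR adjusted p = 0.669). Its counts in total RNA were 3 and 3 (WT) against 2 and 12 (Mut-labelled), a ratio of 2.18 with an exact 95% counting interval of 0.786 to 6.91. The ratio of Ccl3 to Ccl4 counts, which needs no scaling between libraries, was 1.34 and 1.73 in WT and 0.223 and 0.0571 in Mut-labelled mRNA libraries. In total RNA the ratio was 2.67 and 1.33 against 1.0 and 0.0833, from 1 to 12 counts of each gene per library. In both kinds both Mut-labelled libraries had the lower ratios, on few counts in the total RNA libraries.

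The 12 macrophage and monocyte markers, of cells that make Ccl3 and Ccl4 when stimulated, summed to 134 and 102 CPM (WT) against 157 and 105 CPM (Mut-labelled) in mRNA libraries. EdgeR called 0 of 11 tested genes, and Marco was at 0 in Mut-labelled libraries. The sum joins genes of opposite direction. C1qa, at 7.01 and 3.4 against 1.94 and 1.12 CPM, C1qb, C1qc, Mrc1 and Cd68 were lower in both Mut-labelled libraries. Csf1r, at 17 and 13.5 against 49.5 and 30.7 CPM, and Cd14 were higher in both, and DESeq2 called Csf1r higher. The 12 basophil and mast cell markers summed to 724 and 674 against 1220 and 1620 CPM, of which Gata2 alone held 538 and 548 against 510 and 689 CPM. Of these markers 4 were called higher and 2 lower, and Mcpt4 and Cma1 were at 0 in Mut-labelled libraries. Those called higher include Cpa3, a mast cell protease gene, at 28.7 and 19.4 against 455 and 514 CPM. Those called lower are basophil protease genes, Mcpt8 at 19.4 and 17.4 against 2.31 and 1.64 CPM and Prss34 at 68.9 and 44.3 against 0.0286 and 0 CPM. The mast cell protease gene Tpsb2 was lower too, at 7.09 and 0.235 against 0 and 0.0274 CPM, and so was Fcer1a. Cd200r3, at 0.817 and 1.1 against 27.5 and 50 CPM, Ms4a2, Il1rl1 and Hdc were higher in both Mut-labelled libraries. Mast cell protease genes thus went both ways, and the list did not divide by these cell types. By total RNA 5 markers of this list were called higher and 1 lower. The part of these cells in the fall of Ccl3 was not tested.

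The 3 genes with the pattern nearest to that of Ccl3 over the 4 mRNA libraries, by Euclidean distance of centred log2 CPM among 14291 genes, were Fzd3 (distance 0.482), Igdcc4 (0.539) and Slc9b2 (0.546). Fzd3 encodes a Wnt receptor and had 2.82 and 4.55 CPM (WT) against 0.686 and 0.219 CPM (Mut-labelled). With 4 libraries a distance of this kind is a description alone.

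As a set, 9 of the 10 members had a positive and 1 a negative log2 fold change in mRNA libraries under TMM scaling, with a median of 0.28 against -0.01 for all genes tested. Under ERCC scaling 3 were positive, Tnfaip3, Socs3 and Ccl4. In the total RNA libraries 7 of the 8 tested were positive, with a median of 0.34 against 0.00, and under ERCC scaling 2 were, Tnfaip3 and Socs3. Both Mut-labelled libraries exceeded both WT libraries for 5 of 10 members in mRNA and 6 of 8 tested in total RNA libraries, where 21.4 and 22.5% of all genes tested did so. The reverse held for 1 of 10 in mRNA libraries, Ccl3, and 0 of 8 in total RNA libraries, against 23.1 and 21.4% of genes. Groups thus lay apart in either direction for 6 of 10 and 6 of 8 members and for 44.6 and 44% of genes. Because the members were chosen with earlier results of these data known, these shares are a description alone.

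Levels were also compared between members, per kilobase of the principal transcript of GENCODE M21, in mRNA libraries. In WT the order was Nfkb1 (64.9 ± 0.261 CPM per kb), Rela (52.2 ± 0.207), Nfkbia (39.7 ± 6.44), Socs3 (17.5 ± 5.25), Nfkb2 (17.0 ± 2.66), Ccl3 (10.8 ± 5.1), Ccl4 (7.99 ± 2.43), Tnfaip3 (6.29 ± 0.825), Relb (5.34 ± 0.771) and Rel (1.7 ± 0.404; all SD, n = 2). The ranges of Socs3 and Nfkb2 overlapped, as did those of each neighbouring pair from Ccl3 to Relb. In Mut-labelled libraries Socs3, at 63.7 ± 30.8 CPM per kb, stood second with a range that overlapped those of Nfkb1 (79.6 ± 0.476) and Rela (62.2 ± 2.28), and Ccl3, at 1.13 ± 0.497, came last (SD, n = 2). Per kilobase of all annotated exons Nfkb1 stood in WT at 22.2 CPM per kb, below Rela (46.3) and Nfkbia (39.0), because its annotated exons add up to 12.06 kb against 4.12 kb for the principal transcript.

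The pathway around the members was read from 11 further lists holding 170 genes. In mRNA libraries 10 of 150 tested genes were called, 5 higher and 5 lower, with a median log2 fold change of 0.11, and in total RNA libraries 9 of 104, 6 higher and 3 lower, with a median of 0.12. Those shares, 6.67 and 8.65%, stand beside 3.64 and 4.22% of all genes tested. The lists were chosen with earlier results of these data known, so the shares cannot be read as a result about the pathway. The directions below are those under TMM scaling. With ERCC scaling the 9 list genes other than Il18r1 called in mRNA libraries kept their direction and lost their call, and in total RNA libraries the calls of Il1r1, Il18rap and Ltb remained. Of the list, Bcl2a1a and Bcl2a1d were not matched.

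Of 6 further IkB genes 1 was called in each kind of library, Bcl3, which encodes a nuclear IkB protein that binds p50 and p52 dimers on DNA. It rose from 31.9 and 28.9 CPM to 75.8 and 81.7 CPM in mRNA libraries, which is 1.37 on the log2 scale (SE 0.14, edgeR adjusted p = 0.00943), and from 26.3 and 38.1 CPM to 80.8 and 81.3 CPM in total RNA libraries (1.33, SE 0.26, edgeR adjusted p = 0.0035). The groups lay far apart in both kinds, while DESeq2 did not call the total RNA difference (adjusted p = 0.113). The other genes of this list, Nfkbib, Nfkbie, Nfkbiz, Nfkbid and Nfkbil1, had log2 fold changes of 0.05 to 0.28 in mRNA libraries.

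The 28 kinase and adaptor genes, which carry the signal from receptors to IkB, had 0 calls by edgeR in mRNA libraries (2 at an unadjusted p below 0.05) and 1 by DESeq2, with a median log2 fold change of 0.08. Of 26 tested in total RNA libraries, edgeR called 0 (2 had an unadjusted p below 0.05) and DESeq2 0. Rbck1, a subunit gene of the linear ubiquitin ligase and the most abundant of the list, had 261 and 252 CPM (WT) against 259 and 275 CPM (Mut-labelled) in mRNA libraries. Of 14 further brake genes edgeR called 1 in each kind, Tnfaip8l2, which encodes TIPE2, an inhibitor of Toll-like receptor signalling. It rose from 18.6 and 15.5 CPM to 65.3 and 51.2 CPM in mRNA libraries (log2 fold change 1.77, SE 0.20, edgeR adjusted p = 0.0132) and by 2.05 on the log2 scale in total RNA libraries (edgeR adjusted p = 8.02e-04). Tnip3, which encodes an A20-binding inhibitor, stood at 11.2 and 11.9 CPM (WT) against 1.40 and 3.23 CPM (Mut-labelled) in mRNA libraries, and was called lower by DESeq2 but not by edgeR (log2 fold change -2.32, edgeR adjusted p = 0.0568). The most abundant brake gene, Tax1bp1, an A20 adaptor, had a log2 fold change of -0.12 in mRNA libraries (edgeR adjusted p = 0.78).

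Of 13 tested receptor genes upstream of NF-kB, 3 were called lower in mRNA libraries and 0 higher, all of the interleukin-1 and interleukin-18 receptor family. Il1r1, the signalling receptor of interleukin-1, fell from 40.2 and 39.4 CPM to 6.29 and 6.68 CPM in mRNA libraries (log2 fold change -2.62, SE 0.19, edgeR adjusted p = 0.00565) and by 3.57 on the log2 scale in total RNA libraries (edgeR adjusted p = 4.79e-04). Il18r1, the ligand-binding chain of the interleukin-18 receptor, fell from 6.17 and 11.4 CPM to 0.457 and 0.0821 CPM (log2 fold change -5.02, edgeR adjusted p = 0.0327). Both Mut-labelled libraries lay below both WT libraries in each of these tests. Without Mut-labelled replicate 1 the Il18r1 change was -6.69 and without replicate 2 it was -4.25, and the total RNA change of Il1r1 without Mut-labelled replicate 2 was -4.60. The total RNA libraries held 2 and 0 counts of Il18r1 (WT) against 0 and 3 (Mut-labelled), too few to test within the kind, and did not show the fall. In the fit over all 8 libraries its total RNA difference lay 5.53 above that of mRNA on the log2 scale (unadjusted p = 0.0172, edgeR adjusted p = 1). Il18rap, the second chain of that receptor, fell by 1.49 on the log2 scale in mRNA libraries (edgeR adjusted p = 0.0297), and lost its call without Mut-labelled replicate 2 (edgeR adjusted p = 0.063). Its total RNA change was -1.27 (edgeR adjusted p = 0.0341), with a call lost on dropping any of the 4 libraries (0.0535 to 0.113), with all 8 libraries in one fit (0.0827) and with DESeq2 (adjusted p = 0.787). The TNF receptor gene Tnfrsf1a, the most abundant of this list, had 119 and 124 CPM (WT) against 151 and 141 CPM (Mut-labelled) in mRNA libraries (log2 fold change 0.27, edgeR adjusted p = 0.391).

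Of 8 tested cytokine ligand genes, 2 were called lower and 1 higher in mRNA libraries. Ltb, a subunit gene of lymphotoxin, which activates non-classical NF-kB, fell from 54.9 and 55.3 CPM to 17.3 and 12.7 CPM (log2 fold change -1.88, SE 0.20, edgeR adjusted p = 0.0125). It fell by 2.07 on the log2 scale in total RNA libraries (edgeR adjusted p = 0.00206, DESeq2 adjusted p = 0.11). Il18 fell by 1.63 on the log2 scale in mRNA libraries (edgeR adjusted p = 0.0461) and its call was lost on dropping any of the 4 libraries (0.076 to 0.146) and with all 8 libraries in one fit (0.0899). Csf1, the macrophage growth factor gene, rose by 1.16 on the log2 scale there (edgeR adjusted p = 0.0363). Without WT replicate 1 or Mut-labelled replicate 2 it stood at 1.02 and 1.10 and missed the threshold (edgeR adjusted p = 0.107 and 0.0863). Tnfsf10, which encodes TRAIL and was the most abundant of the list, had a log2 fold change of -0.51 (edgeR adjusted p = 0.173). Tnf itself was low, at 1.18 to 2.29 CPM in the mRNA libraries.

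Further NF-kB target genes had 0 calls among 26 tested in mRNA libraries by edgeR. Of them 9 had an unadjusted p below 0.05, and DESeq2 called 5 higher, namely Bcl2l1, Ccl2, Ccnd1, Cxcl2 and Junb. Their median log2 fold change was 0.19. In total RNA edgeR called 0 of 16 (5 had an unadjusted p below 0.05) and DESeq2 0. Pim1, a kinase gene and the most abundant of the list, stood at 447 and 514 CPM (WT) against 576 and 878 CPM (Mut-labelled) in mRNA libraries (log2 fold change 0.60, edgeR adjusted p = 0.307). Of 12 other chemokine genes tested, edgeR called 0 (3 had an unadjusted p below 0.05) and DESeq2 called 2 higher, Ccl6 and Ppbp. Of 3 tested in total RNA, edgeR called 0 (0 had an unadjusted p below 0.05) and DESeq2 0. Ccl9, the most abundant of these, had 44.5 and 51.4 CPM (WT) against 41.0 and 43.7 CPM (Mut-labelled) in mRNA libraries (log2 fold change -0.18, edgeR adjusted p = 0.7).

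Among 14 chemokine receptor genes 1 was called in mRNA libraries, Cxcr2, the receptor of neutrophil-attracting chemokines. It rose from 4.14 and 5.36 CPM to 39.6 and 38.5 CPM (log2 fold change 3.04, SE 0.22, edgeR adjusted p = 0.00579), and by 3.24 on the log2 scale in total RNA libraries (edgeR adjusted p = 6.31e-04). Ccr1, which encodes a receptor of the Ccl3 product, had a log2 fold change of 1.44 (edgeR adjusted p = 0.0764), and DESeq2 called it higher. Cxcr4, the most abundant of the list and the receptor that holds progenitors in the marrow, stood at -0.06 (edgeR adjusted p = 0.922).

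For Socs3 the related lists were the other SOCS genes, the JAK and STAT genes, and receptors that the SOCS3 protein binds or restrains. In mRNA libraries edgeR called 0 of the 7 other SOCS genes (2 at an unadjusted p below 0.05) and 1, Socs1, by DESeq2 as higher. Their median was -0.20, against 1.86 for Socs3, and the most abundant, Socs4, stood at 0.01. Of 6 tested in total RNA, edgeR called 0 (1 had an unadjusted p below 0.05) and DESeq2 0. From the 11 JAK and STAT genes edgeR called 0 in mRNA libraries (1 had an unadjusted p below 0.05, and DESeq2 called Stat5b) and 2 in total RNA libraries. These were Jak3, a kinase of cytokine receptors (log2 fold change 0.78, edgeR adjusted p = 0.019), and Stat5b (0.62, edgeR adjusted p = 0.0326). Both calls were lost without WT replicate 1 (0.148 and 0.157) or Mut-labelled replicate 2 (0.236 and 0.256), and both changes turned negative under ERCC scaling (-0.35 and -0.49). They were also lost with all 8 libraries in one fit (0.241 and 0.077), and that of Stat5b with DESeq2 (adjusted p = 0.202).

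Csf3r, the receptor gene of G-CSF, whose signal SOCS3 restrains, was the 1 receptor of this kind called by edgeR among 11 in mRNA libraries, where DESeq2 called 3 higher, Csf3r among them, and 1 lower. It rose from 169 and 185 CPM to 305 and 403 CPM in mRNA libraries (log2 fold change 1.0, SE 0.18, edgeR adjusted p = 0.0456). The total RNA values went from 120 and 129 CPM to 221 and 243 CPM (0.90, SE 0.17, edgeR adjusted p = 0.00215), and under ERCC scaling there it turned to -0.20. Dropping Mut-labelled replicate 2 (0.0681), WT replicate 1 (0.165) or WT replicate 2 (0.0616) ended the mRNA call.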

How the data were processed

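RNA was measured by sequencing in 2 WT and 2 Mut-labelled samples, each as an mRNA and a total RNA library. The authors deposited raw counts, whole numbers with 1 column per library, for 37991 gene identifiers, 92 ERCC transcripts and 3 rRNA species. Per the submitters' processing notes mm9 is listed as the build, and TopHat, featureCounts and edgeR as tools. The sources used here give no annotation release, strand use or treatment of multiply mapped reads. ERCC and rRNA rows were left out of library totals and tests. Symbols came from a GENCODE M21 table that matched 32919 identifiers.

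Mut-labelled and WT libraries of a kind were tested against each other in edgeR 4.0.16 (R 4.3.3; TMM scaling, filterByExpr, quasi-likelihood test, two-sided, Benjamini-Hochberg adjustment over all genes tested, called at an adjusted p under 0.05), and kinds by an interaction over all 8 libraries. SE and 95% intervals were derived from the F statistic. DESeq2 1.42.0, RLE and ERCC scaling, other filters, a fit over all 8 libraries, replicate blocks and leaving out each library were alternatives. The test was tried on simulated data. Replicate libraries were not repeat deposits, since their counts gave 2.6 to 65.1 for chi-square over degrees of freedom. An mRNA and a total RNA library that share a name were taken as 1 sample, by name alone. Their deviations from the group mean correlated at 0.396 (WT) and 0.455 (Mut-labelled) over 10509 genes. Same-numbered WT and Mut-labelled mRNA libraries, which are different samples, correlated at 0.636, so these values cannot show a shared sample. Members and lists were chosen with earlier results of these data known, the STAT motif after the members' values were seen. Genes named from the lists were those called in either kind and the most abundant of each list, apart from genes that are not reported here. Ccr1, Tnf, Tnip3, the other IkB genes, single marker genes and genes called by DESeq2 alone were added after their values were seen.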

Additional observations from a re-analysis of the deposited data

How the results depend on the processing

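With 2 libraries per group and few counts in total RNA libraries, differences in low members such as Ccl4 and Rel were not resolved. The number of members called in mRNA libraries was 1, and 0 with ERCC scaling, 2 with DESeq2, without a filter on low counts or with all 8 libraries in one fit, and 0 to 2 when a library was left out. In total RNA libraries it was 2, and 0 with ERCC scaling and 1 with DESeq2 or all 8 libraries in one fit. All genes called in mRNA libraries went from 624 to 170 (ERCC scaling) and 1496 (DESeq2). In total RNA libraries they went from 445 to 159 (DESeq2), 724 (no filter on low counts) and 273 (all 8 libraries in one fit), with 117 higher and 42 lower by DESeq2. For the difference between kinds they went from 0 to 11 (DESeq2), to 0 to 1 when a sample was left out, and to 111 with the sample of origin as a block. List genes other than members called in mRNA libraries went from 10 to 20 at an adjusted p under 0.1.

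The same replicate numbers recur in both groups, and deviations of same-numbered libraries correlated at 0.636 (mRNA) and 0.228 (total RNA), but nothing in the labels ties them. With the replicate number as a block, 5 members were called in mRNA libraries, of which Nfkb1 (edgeR adjusted p = 0.0161) and Rela (0.0374) are subunits and the others Tnfaip3, Socs3 and Ccl3, and all genes called were 2870 in mRNA and 870 in total RNA libraries.

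ERCC scaling reversed Nfkb1, Nfkb2, Rela, Relb, Rel and Nfkbia in mRNA libraries (-0.08, -0.24, -0.10, -0.12, -0.10 and -0.24) and Nfkb1, Nfkb2, Rela, Relb and Nfkbia in total RNA libraries (-0.69, -0.79, -0.81, -0.40 and -0.81). Leaving out a library gave ranges -0.01 to 0.33 for Nfkb2 in mRNA libraries, -0.16 to 0.54 for Rel in mRNA libraries, -0.04 to 1.0 for Ccl4 in mRNA libraries, -0.44 to 0.24 for Rel in total RNA libraries, -0.14 to 0.67 for Nfkbia in total RNA libraries, -0.05 to 0.32 for Nfkb2 (difference between kinds), -0.19 to 0.18 for Nfkbia (difference between kinds), -0.14 to 0.43 for Socs3 (difference between kinds), -0.46 to 0.85 for Ccl4 (difference between kinds). For the difference between kinds, ERCC scaling reversed Nfkb1 (-0.60), Nfkb2 (-0.54), Rela (-0.71), Relb (-0.26), Tnfaip3 (-0.25), Socs3 (-0.82) and Ccl4 (-0.49), a minimum of 50 counts reversed Rela (-0.02), and the sample of origin as a block reversed Nfkbia (0.02). None of these reversed values passed the threshold, and the causes were not tested. The share of promoter windows with a kB consensus went from 8.46% to 63.17% when 1 mismatch was allowed, with 9 of the 10 windows of members holding such a match.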

Other observations

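In mRNA libraries the ratio of replicate 2 to replicate 1, in WT and Mut-labelled libraries, was 1.40 and 1.63 for Rel, 1.20 and 1.58 for Tnfaip3, 1.54 and 2.04 for Socs3 and 1.55 and 2.06 for Ccl4. For Nfkb1 it was 1.01 and 0.992, for Rela 0.994 and 1.05, and for Ccl3 2.0 and 0.526. The median over all genes tested was 0.999 in both groups, with the 5th and 95th percentiles at 0.565 and 2.21 in WT and 0.469 and 2.33 in Mut-labelled libraries, so each of these ratios lay within that range. In total RNA libraries the ratios were 1.60 and 1.24 for Rel, 1.03 and 1.17 for Tnfaip3, and 2.44 and 2.07 for Socs3, where the 95th percentiles were 1.74 and 1.73. These genes were chosen after their values were seen.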
